A study of Mus musculus with 14 samples.

Results

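The genes described here encode the core autophagy machinery, measured in mouse hepatic stellate cells (HSCs) during the first hours and days of culture activation. The list holds 36 genes, and each was taken as the probe set paired with that gene symbol alone, or as the brightest such probe set where a gene had several. By this rule 35 of the 36 genes were measured, out of 19938 genes with a single-gene probe set, and optineurin (Optn) was not analysed here. HSCs were isolated from livers of BalbC mice (Balb/cByJ per the study's methods) and grown in DMEM with 10% fetal bovine serum. At 2 h after seeding the loose cells were washed off, and this moment was set as time 0. The 5 groups were Ctrl4h, Ctrl16h and Ctrl64h, which are cells without drug collected after 4, 16 and 64 h, and VPA4h and VPA64h, which are cells given 2.5 mM valproic acid (VPA, an inhibitor of histone deacetylases) from time 0 and collected after 4 and 64 h. Ctrl16h had 2 arrays and each other group 3, 14 in all. The study describes the arrays within a group as separate isolations. Whether different groups shared isolations is not stated. Every group had been in culture for at least 4 h, so Ctrl4h is an early culture state and not the state in the liver, and VPA at 16 h was not analysed here.

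Autophagy delivers cytoplasm and organelles to lysosomes inside double-membrane vesicles called autophagosomes. A kinase complex around ULK1 starts the process, a class III phosphatidylinositol 3-kinase complex marks the growing membrane with lipid, and ATG2, ATG9 and WIPI proteins help it to expand. ATG8 proteins (the LC3 and GABARAP families) are trimmed by ATG4 proteases, attached to the membrane by ubiquitin-like conjugation enzymes and bound there by receptors such as p62 that carry the cargo. In HSCs autophagy is known for breaking down lipid droplets, the stores of vitamin A that these cells lose when they activate. Transcript levels were measured here, and neither protein levels nor autophagic flux were.

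Levels are given on the log2 scale of the RMA values that the authors deposited, where a step of 1 is a 2-fold change, and a level of one probe set cannot be set against that of another. Differences are log2 changes with their standard error (SE) from limma, and "rose" and "fell" are used of genes whose Benjamini-Hochberg adjusted p, over the 23410 probe sets tested, was below 0.05. Medians of the 14 arrays lay between 6.34 and 6.41, and the lowest correlation between arrays of a group was 0.987. Of the 35 genes, 34 had a mean level above 6.4, the median of the tested probe sets, and Atg10 lay below it. The mean level of 10 stellate cell markers stayed between 8.97 and 9.68 on all arrays, while that of Acta2, Lox, Col1a1 and Tagln, which mark activation, went from 9.84 to 10.4 in Ctrl4h up to 12.14 to 12.2 in Ctrl64h and reached 11.29 to 11.38 in VPA64h. Single stellate markers moved more than their mean: 3 of the 10 rose and 4 fell from Ctrl4h to Ctrl64h, 5 of these by at least 2-fold, and 3 were higher and 4 lower in VPA64h than in Ctrl64h. Mean levels of the marker lists of Kupffer cells (14 genes), sinusoidal endothelial cells (10), hepatocytes (8 measured), cholangiocytes (4) and lymphocytes (4) lay between 5.10 and 6.41. No gene of these 5 lists passed the test between VPA4h and Ctrl4h (unadjusted p was below 0.05 for 1 endothelial and 1 cholangiocyte marker), whereas 4 Kupffer, 5 endothelial, 3 hepatocyte, 2 cholangiocyte and 2 lymphocyte markers fell from Ctrl4h to Ctrl64h (1 endothelial and 1 cholangiocyte marker rose), and 4 endothelial and 2 Kupffer markers were lower in VPA64h than in Ctrl64h. After 16 h 5 Kupffer markers rose, with Lyz2 the most (1.79), and 2 fell. The part of these cells in the changes below was not tested, and in bulk RNA fewer cells of a type and less of a transcript per cell cannot be told apart.

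On the deposited scale more autophagy genes rose than fell over the whole control culture, at shares near those of the brighter probe sets. The rises came mostly after 16 h. With housekeeping centring, given below, more genes fell than rose from Ctrl4h to Ctrl64h. After 16 h only the calls of Atg101 and Nbr1 were lost on that scale. From Ctrl4h to Ctrl16h 4 of 35 genes rose and 9 fell, against 12.8% of all probe sets higher and 7.32% lower (23.2% and 12.4% of the 11705 probe sets at or above the median level). From Ctrl16h to Ctrl64h 16 rose and 5 fell, against 19.2% and 23.9% (29.4% and 26.0% of the brighter probe sets). From Ctrl4h to Ctrl64h 17 rose and 9 fell, against 25.0% and 31.6% (39.5% and 28.5%). The 3 comparisons share arrays, so their counts are not separate evidence. The median change of the 35 genes was -0.06, 0.19 and 0.21 in turn, beside -0.01, -0.07 and -0.09 over all probe sets. The brighter probe sets are given because 34 of the 35 genes were among them. Read against these, the shares of autophagy genes that rose (48.6%) and fell (25.7%) over the whole culture lay near the background, whereas 25.7% fell by 16 h against 12.4% and 45.7% rose after 16 h against 29.4%. The count that fell by 16 h rests on both Ctrl16h arrays: it was 3, beside 3 that rose, without replicate 1 and 4, beside 4, without replicate 2. After 16 h 13 rose without either array, and 3 or 4 fell. A change of at least 2-fold was met by no gene by 16 h (1.91% of all probe sets), by Atg4a and Sqstm1 after 16 h (6.60%), and by Atg4a, Gabarap, Uvrag and Sqstm1 over the whole culture (10.4%).

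With VPA the change was mostly upward on the deposited scale. With housekeeping centring, given below, the counts were mostly upward at 4 h but not at 64 h. That centring moved all changes of a comparison alike. At 4 h 17 of 35 genes (48.6%) were higher in VPA4h than in Ctrl4h and 2 (5.71%) were lower, against 11.5% and 9.96% of all probe sets. Over the probe sets at or above the median level the same shares were 21.2% and 17.8%. At 64 h 13 of 35 (37.1%) were higher in VPA64h than in Ctrl64h and 1 (2.86%) was lower, against 12.8% and 11.2% of all probe sets and 18.2% and 16.7% of the brighter ones. These 2 comparisons share no arrays. The median change was 0.28 at 4 h and 0.16 at 64 h, beside -0.03 and 0.00 over all probe sets. The changes were small in size: Uvrag alone reached 2-fold at 4 h (1.42% of all probe sets did), and no gene did at 64 h (2.14%).

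**Figure D1:**
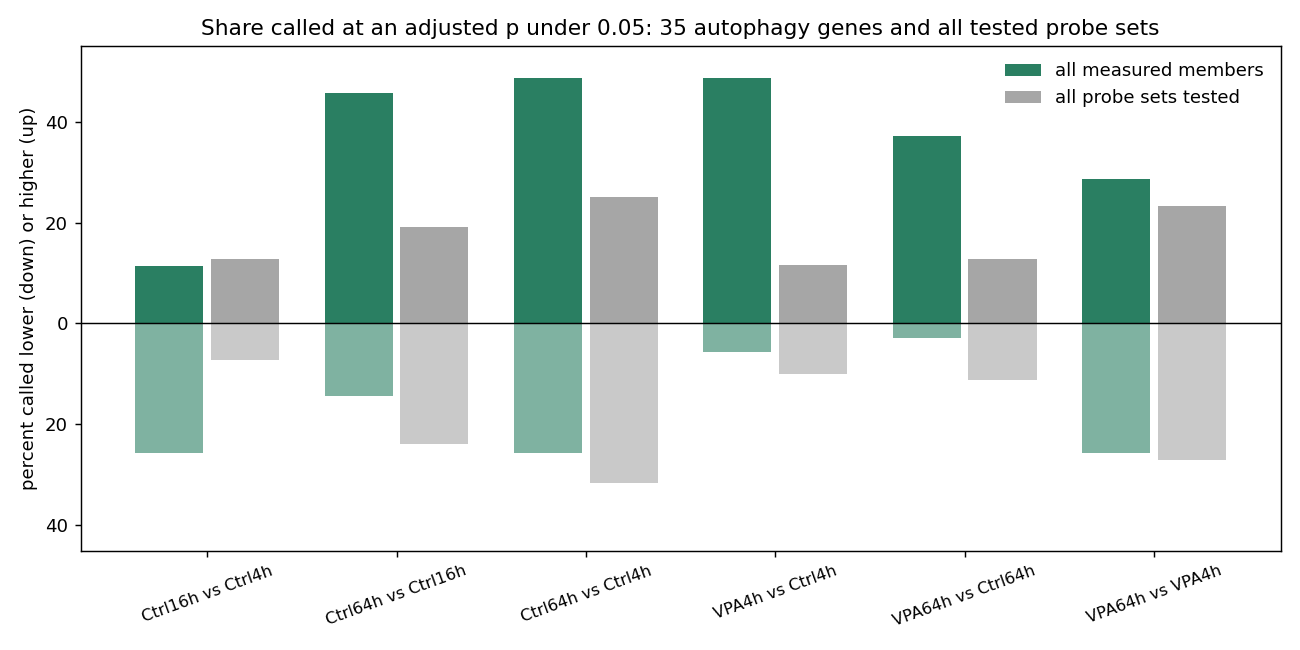
Percent of the 35 autophagy genes (green) and of all 23410 probe sets tested (grey) called higher (upward bars) or lower (downward, paler bars) at an adjusted p below 0.05, in 6 comparisons. The green upward bars stand at 48.6% and 37.1% in the VPA comparisons at 4 and 64 h, where the grey ones stand at 11.5% and 12.8%; with arrays centred on housekeeping genes the 64 h split became 6 higher and 7 lower.

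RMA sets every array to the same overall distribution, so a change says how a gene moved against the rest of its array. Centring each array instead on 9 housekeeping genes moved the median change of all probe sets to -0.40 for Ctrl16h against Ctrl4h, -0.55 for Ctrl64h against Ctrl4h, -0.68 for VPA64h against VPA4h, -0.12 for VPA4h against Ctrl4h and -0.23 for VPA64h against Ctrl64h. On that scale the genes counted as risen and fallen were 2 and 25, 7 and 18, 4 and 25, 12 and 3, and 6 and 7, and the median of the 35 was -0.45, -0.25, -0.53, 0.19 and -0.07. The shares of all probe sets called on that scale are not given here, so these counts have no background beside them. The median of the 35 lay above that of all probe sets in each of these comparisons but the first. None of the 2-fold rises over the control culture remained on that scale, where 0 genes were 2-fold higher and 6 were 2-fold lower (Ambra1, Atg2a, Wipi2, Gabarapl1, Sqstm1 and Tfe3). With VPA at 4 h the calls of Rb1cc1, Atg13, Pik3c3, Atg4b and Atg4c were lost on that scale (0.22 to 0.29, adjusted p from 0.0686 to 0.0909). At 64 h those of Pik3c3, Ambra1, Atg7, Atg10, Map1lc3b, Sqstm1 and Mitf were lost (0.09 to 0.29, adjusted p from 0.0556 to 0.528). Over the control culture those of Rb1cc1, Atg13, Atg4b, Atg3, Atg5, Atg7, Atg10, Atg12, Map1lc3b and Gabarapl2 were lost (-0.18 to 0.24), and no called gene was called in the opposite direction.

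**Figure D2:**
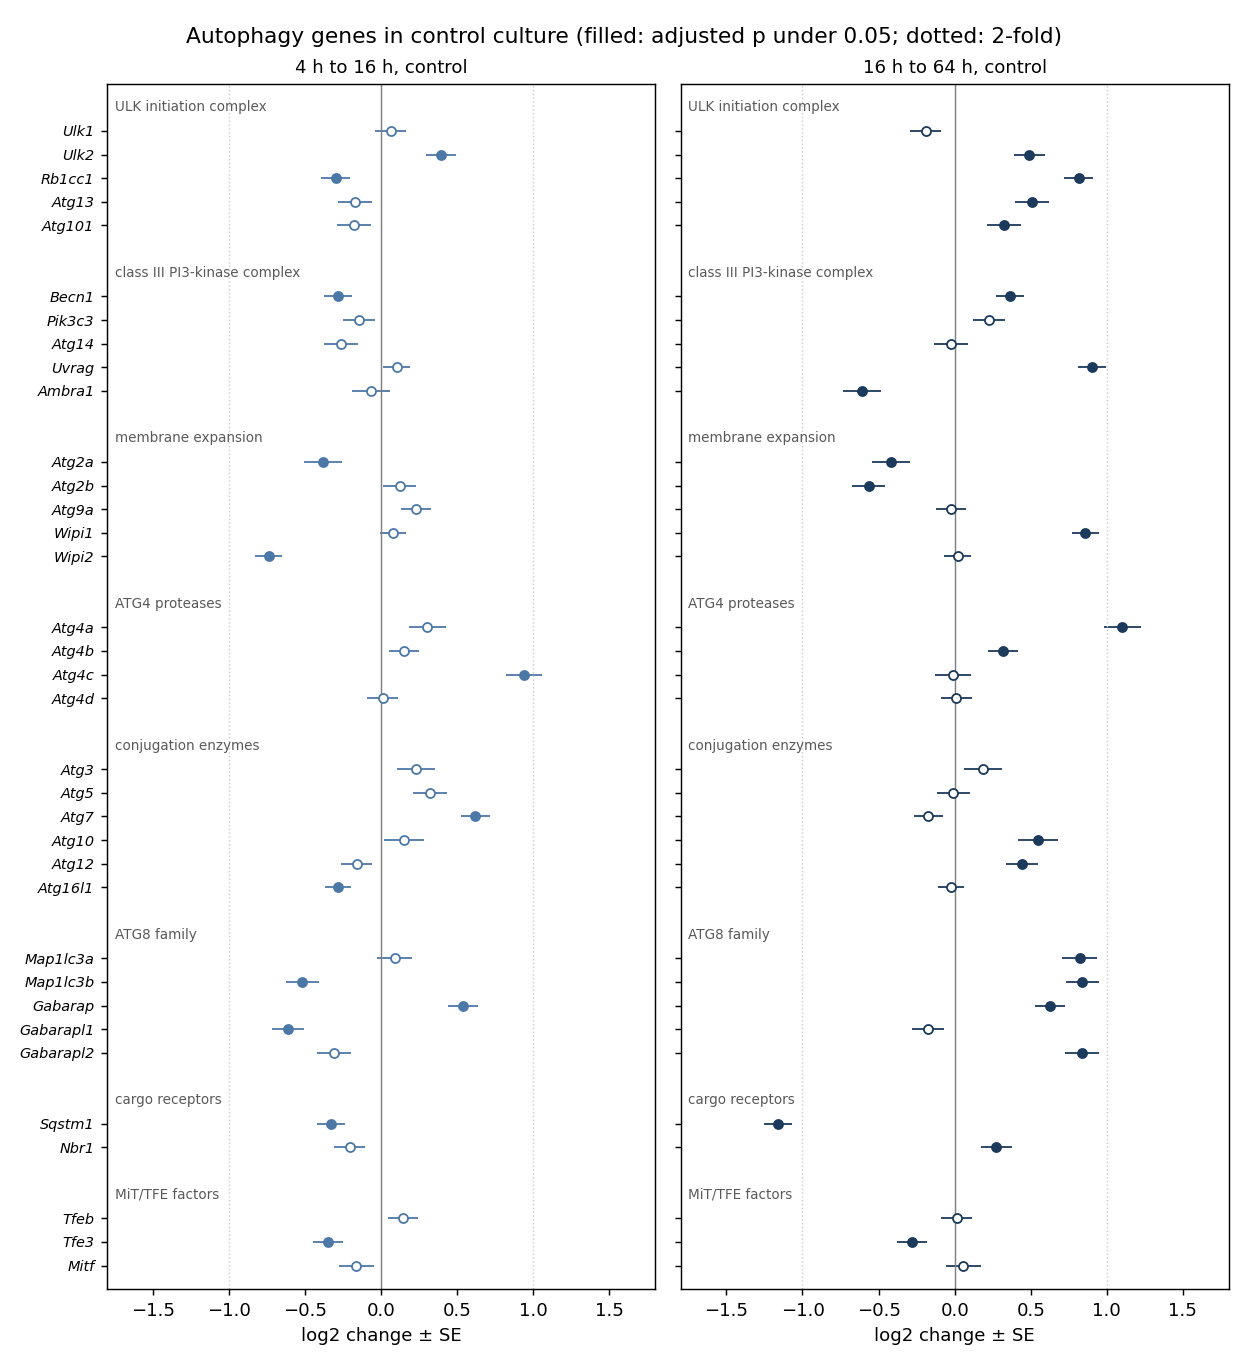
Log2 change with its SE of each of the 35 measured genes in control culture, from 4 to 16 h (left, Ctrl16h against Ctrl4h) and from 16 to 64 h (right, Ctrl64h against Ctrl16h), ordered by role. Filled points passed an adjusted p of 0.05 and dotted lines mark a 2-fold change; 4 genes rose and 9 fell in the first interval, and 16 rose and 5 fell in the second, with Atg4a (1.10) and Sqstm1 (-1.16) beyond the dotted lines.

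Of the ULK initiation complex, 4 of 5 genes rose with VPA at 4 h and the other, Ulk2, fell. Ulk1 encodes the kinase best known for starting autophagy. It read 7.42, 7.27 and 7.49 in Ctrl4h, 7.42 and 7.49 in Ctrl16h and 7.34, 7.31 and 7.14 in Ctrl64h. It read 7.95, 7.89 and 8.09 in VPA4h and 7.48, 7.34 and 7.30 in VPA64h. The VPA4h arrays thus lay above all others, by 0.58 over Ctrl4h (SE 0.09, adjusted p = 0.000183), and the gene fell by 0.60 from VPA4h to VPA64h (SE 0.09, adjusted p = 5.02e-05). Ulk2, the closely related kinase, went the other way in both respects. It read 7.23, 7.13 and 7.05 in Ctrl4h, 7.60 and 7.46 in Ctrl16h and 7.98, 8.13 and 7.95 in Ctrl64h, with no overlap between the 3 times. With VPA it read 6.61, 6.86 and 6.85 at 4 h and 7.43, 7.48 and 7.44 at 64 h, below the control of the same time on every array. It rose by 0.39 to 16 h (SE 0.10, adjusted p = 0.0102) and by 0.88 over the whole culture (SE 0.09, adjusted p = 5.25e-07). It was lower with VPA by 0.36 at 4 h (adjusted p = 0.00698) and by 0.57 at 64 h (adjusted p = 0.000232), and was the gene lowered by VPA at both times. The rise of Ulk2 to 16 h was 0.01 (adjusted p = 0.954) with housekeeping centring and 0.33 (adjusted p = 0.136) without Ctrl16h replicate 1.

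The other 3 genes encode scaffold and adaptor proteins of the complex. Rb1cc1, which encodes FIP200, read 7.37, 7.35 and 7.22 in Ctrl4h, 7.02 and 7.01 in Ctrl16h and 7.70, 7.89 and 7.90 in Ctrl64h. It fell by 0.30 to 16 h (adjusted p = 0.0376) and then rose by 0.81 (adjusted p = 6.39e-06). Atg13 and Atg101, whose products bind each other within the complex, were not called by 16 h (-0.17 and -0.18) and rose after it by 0.51 (adjusted p = 0.00165) and 0.32 (adjusted p = 0.0311). At 4 h VPA raised Rb1cc1 by 0.34, Atg13 by 0.34 and Atg101 by 0.46 (adjusted p = 0.00777, 0.0194 and 0.00326). At 64 h the differences were -0.05, 0.08 and 0.10, none of which passed the test.

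In the class III PI3-kinase complex Uvrag stood out from the other 4 genes. Uvrag encodes a Beclin 1 partner found in the form of the complex that acts on endosomes and on autophagosome maturation. It read 8.23, 8.23 and 8.16 in Ctrl4h and 8.19 and 8.43 in Ctrl16h. All 9 other arrays lay higher, at 9.23, 9.21 and 9.21 in Ctrl64h, 9.22, 9.23 and 9.26 in VPA4h and 9.33, 9.17 and 9.33 in VPA64h. On the deposited scale the VPA4h and Ctrl64h arrays thus lay side by side. The gene rose 2.01-fold over the control culture (log2 change 1.01, SE 0.08, adjusted p = 4.09e-08) and was 2.04-fold higher in VPA4h than in Ctrl4h (1.03, SE 0.08, adjusted p = 3.18e-07). At 64 h the difference between VPA and control was 0.06 (SE 0.08, adjusted p = 0.655). The VPA effect at 64 h was smaller than at 4 h by 0.97 on the log2 scale (SE 0.12, adjusted p = 3.92e-05). The VPA effect at 4 h was 0.93 with housekeeping centring and 0.98 with repeated quantile normalisation, both below 2-fold. With housekeeping centring Uvrag rose by 0.55 over the control culture, so Ctrl64h lay below VPA4h. On that scale it fell by 0.28 to 16 h (adjusted p = 0.0189) and by 0.56 from VPA4h to VPA64h (adjusted p = 1.98e-05).

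The core subunits moved less. Becn1, which encodes Beclin 1, fell by 0.28 to 16 h (adjusted p = 0.0366) and rose by 0.36 after it (adjusted p = 0.00434), and differed from control by -0.15 and -0.07 with VPA, neither of which passed the test. Pik3c3, the catalytic subunit VPS34, read 7.85, 7.95 and 7.95 in Ctrl64h and 8.48, 8.22 and 8.23 in VPA64h. VPA raised it by 0.33 at 4 h (SE 0.09, adjusted p = 0.0186) and by 0.39 at 64 h (SE 0.09, adjusted p = 0.0061). Atg14, the subunit that directs the complex to autophagosome formation, fell by 0.29 over the control culture (adjusted p = 0.0218). Ambra1, a regulator of Beclin 1, read 7.88 to 8.17 in Ctrl4h and 7.46, 7.15 and 7.41 in Ctrl64h, a fall of 0.67 (SE 0.11, adjusted p = 8.61e-05). It was higher with VPA at 64 h by 0.32 (adjusted p = 0.0492).

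**Figure D3:**
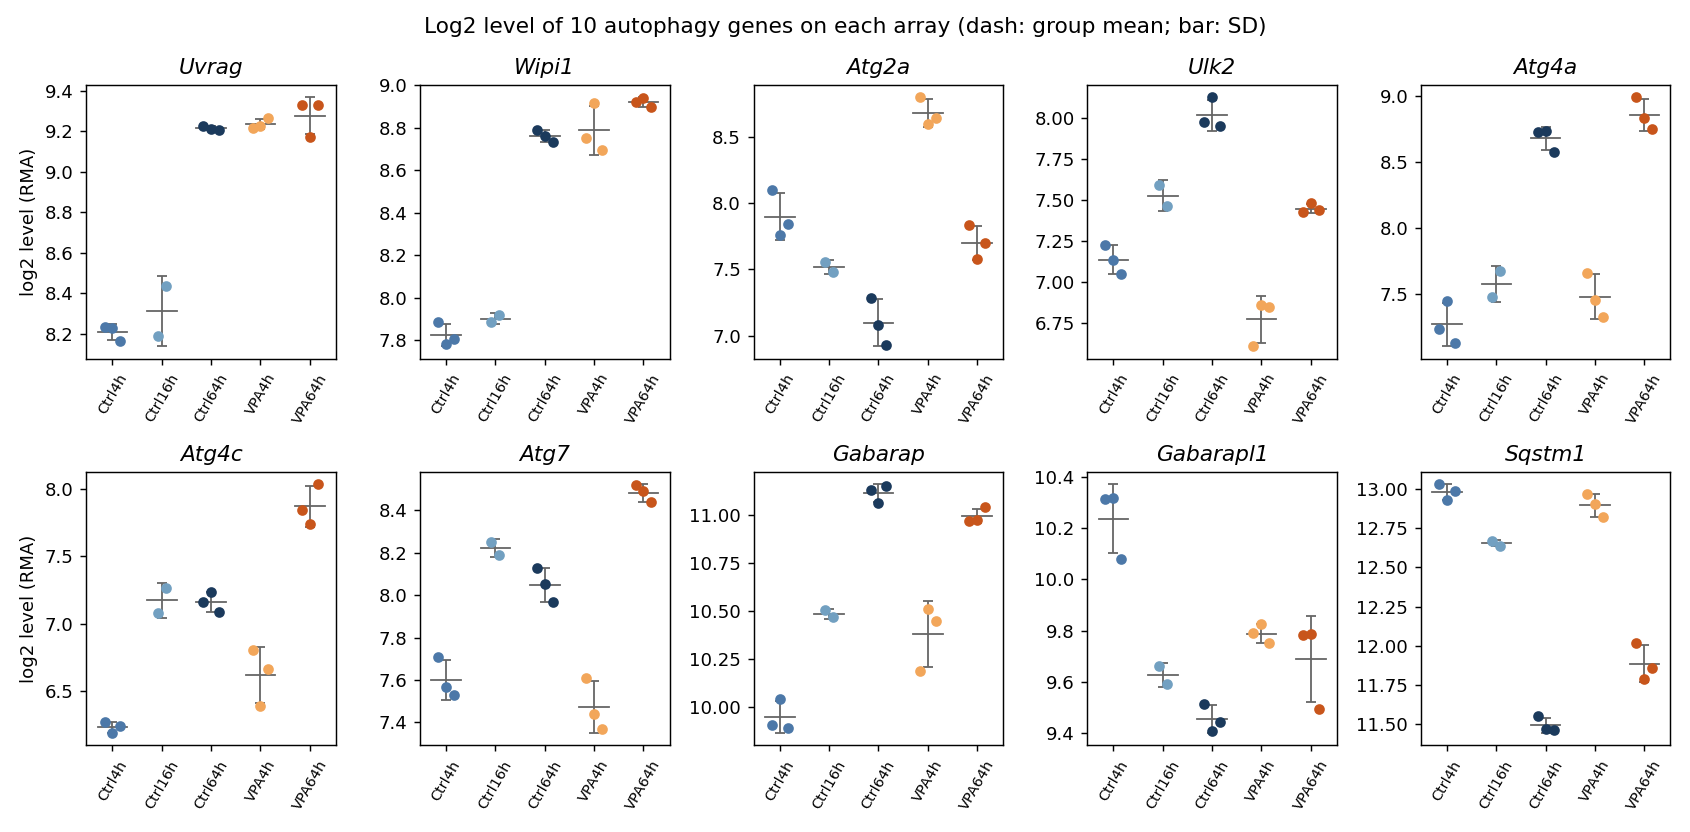
Log2 level of 10 autophagy genes on each of the 14 arrays (points), with the mean (dash) and SD (bar) of each group; every panel has its own scale, which does not start at 0. On this deposited scale Uvrag and Wipi1 sit at one low level in Ctrl4h and Ctrl16h (7.78 to 8.43) and at one high level in the other 3 groups (8.69 to 9.33), whereas Ulk2 and Sqstm1 change step by step with time. With housekeeping centring both Uvrag and Wipi1 fell by 16 h and from VPA4h to VPA64h.

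Among the genes for membrane expansion, Wipi1 had a course like that of Uvrag. WIPI proteins bind the lipid that the PI3-kinase complex makes. Wipi1 read 7.88, 7.78 and 7.81 in Ctrl4h, 7.88 and 7.92 in Ctrl16h and 8.79, 8.76 and 8.73 in Ctrl64h. It read 8.75, 8.92 and 8.69 in VPA4h and 8.92, 8.94 and 8.90 in VPA64h. It rose after 16 h by 0.86 (SE 0.09, adjusted p = 1.23e-06) and with VPA at 4 h by 0.96 (SE 0.08, adjusted p = 3.54e-07). With VPA at 64 h the difference was 0.16 (SE 0.08, adjusted p = 0.163), smaller than at 4 h by 0.80 (SE 0.11, adjusted p = 0.000112). With housekeeping centring Wipi1 lay above Ctrl4h by 0.48 in Ctrl64h and by 0.87 in VPA4h. On that scale it fell by 0.31 to 16 h (adjusted p = 0.00879) and by 0.47 from VPA4h to VPA64h (adjusted p = 5.7e-05). Wipi2, which recruits the conjugation machinery, differed from Wipi1 in timing and direction. It read 9.14, 8.98 and 8.91 in Ctrl4h, 8.23 and 8.31 in Ctrl16h and 8.28, 8.22 and 8.37 in Ctrl64h, and so was already at its low level by 16 h (-0.74, SE 0.09, adjusted p = 2.25e-05). In VPA4h it read 9.09, 9.12 and 9.07, a difference of 0.09 from Ctrl4h (adjusted p = 0.559). In VPA64h it read 8.81, 8.81 and 8.78, above Ctrl64h by 0.51 (SE 0.08, adjusted p = 0.00021).

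Both ATG2 genes, which encode lipid transfer proteins that feed the growing membrane, were lower late in control culture and higher with VPA at both times. Atg2a read 8.09, 7.76 and 7.84 in Ctrl4h, 7.55 and 7.48 in Ctrl16h and 7.29, 7.08 and 6.93 in Ctrl64h, a fall of 0.80 in all (SE 0.11, adjusted p = 1.53e-05). It read 8.80, 8.60 and 8.64 in VPA4h and 7.83, 7.58 and 7.70 in VPA64h, which is higher than control by 0.78 at 4 h (SE 0.11, adjusted p = 6.93e-05) and by 0.60 at 64 h (SE 0.11, adjusted p = 0.00085). Under VPA it still fell between 4 and 64 h, by 0.98 (SE 0.11, adjusted p = 2.47e-06). Atg2b read 7.88, 7.67 and 7.94 in Ctrl4h, 7.98 and 7.92 in Ctrl16h and 7.40, 7.29 and 7.48 in Ctrl64h. With VPA it read 8.32, 8.18 and 8.44 at 4 h and 8.01, 7.84 and 7.99 at 64 h. VPA raised it by 0.48 (adjusted p = 0.00134) and 0.56 (adjusted p = 0.000498), but a dimmer probe set of Atg2b gave 0.24 at 4 h, which did not pass the test (adjusted p = 0.113). Atg9a, which encodes the membrane protein of the seed vesicles, was the one gene of the 35 that passed in none of the 7 comparisons, with changes between -0.36 and 0.23. With the replicate number as a block it passed over the control culture (0.21, adjusted p = 0.0364). It also passed there in the difference of the VPA effects (-0.36, adjusted p = 0.0376). With housekeeping centring Atg9a was instead called lower over the control culture (-0.25, adjusted p = 0.0255). On that scale it was also lower with VPA at 64 h (-0.37, adjusted p = 0.00803) and from VPA4h to VPA64h (-0.75, adjusted p = 3.05e-06).

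The ATG4 proteases, which trim ATG8 proteins and release them from lipid, included the largest rise of the list in control culture, that of Atg4a. Atg4a read 7.23, 7.45 and 7.13 in Ctrl4h, 7.48 and 7.67 in Ctrl16h and 8.72, 8.73 and 8.57 in Ctrl64h. VPA left it at 7.66, 7.46 and 7.33 at 4 h and 8.99, 8.83 and 8.75 at 64 h. It rose 2.65-fold over the control culture (1.41, SE 0.11, adjusted p = 2.55e-08) and 2.59-fold under VPA (1.38, SE 0.11, adjusted p = 4.8e-08). The VPA differences of 0.21 and 0.18 did not pass the test. A second probe set of the gene gave 1.29 for the control culture. Atg4c rose earlier. It read 6.27, 6.19 and 6.24 in Ctrl4h, 7.08 and 7.26 in Ctrl16h and 7.16, 7.23 and 7.09 in Ctrl64h, so that its rise of 0.94 was complete by 16 h (SE 0.12, adjusted p = 3.82e-05). In VPA64h it read 7.84, 7.74 and 8.04, above every other array, and VPA raised it by 0.39 at 4 h (adjusted p = 0.0148) and 0.71 at 64 h (adjusted p = 0.000158). From VPA4h to VPA64h it rose 2.39-fold (1.25, SE 0.11, adjusted p = 1.05e-07). Atg4b, the broadly acting protease of the family, rose by 0.47 over the control culture (adjusted p = 0.000297) and by 0.32 with VPA at 4 h (adjusted p = 0.0153). Atg4d changed by 0.02 over the control culture (adjusted p = 0.842).

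Of the conjugation enzymes, 5 of 6 rose over the control culture and Atg16l1 fell. ATG7 activates ATG8 proteins and ATG12, ATG3 and ATG10 pass them on, and ATG12 joined to ATG5 and ATG16L1 directs the last step. Atg7 read 7.71, 7.57 and 7.53 in Ctrl4h, 8.25 and 8.19 in Ctrl16h and 8.13, 8.05 and 7.97 in Ctrl64h, with its rise of 0.62 complete by 16 h (SE 0.10, adjusted p = 0.000205). In VPA4h it read 7.61, 7.44 and 7.37, overlapping Ctrl4h. In VPA64h it read 8.52, 8.49 and 8.44, above all other arrays and above Ctrl64h by 0.43 (SE 0.09, adjusted p = 0.00139). Under VPA it rose 2.01-fold between 4 and 64 h (1.01, SE 0.09, adjusted p = 9.53e-08). Atg10, the one gene with a mean level below the median of the probe sets, read 5.32, 5.26 and 5.25 in Ctrl4h, 5.53 and 5.33 in Ctrl16h, 6.15, 6.03 and 5.75 in Ctrl64h, 5.37, 5.04 and 5.36 in VPA4h and 6.53, 6.64 and 6.34 in VPA64h. It was not called by 16 h (0.15, adjusted p = 0.509) and rose after it by 0.55 (SE 0.13, adjusted p = 0.00319). It rose by 0.70 over the control culture (SE 0.12, adjusted p = 0.000109) and by 1.25 under VPA (SE 0.12, adjusted p = 3.32e-07), and was higher with VPA at 64 h by 0.52 (adjusted p = 0.0038).

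Atg12 differed in that VPA raised it at 4 h. It read 8.16, 8.02 and 7.97 in Ctrl4h and 8.68, 8.70 and 8.58 in VPA4h (0.60, SE 0.09, adjusted p = 0.000148). In Ctrl16h it read 7.86 and 7.92, in Ctrl64h 8.29, 8.38 and 8.32 and in VPA64h 8.68, 8.62 and 8.35, where the difference of 0.22 from control did not pass (adjusted p = 0.104). Atg3 and Atg5 rose over the control culture by 0.41 (adjusted p = 0.00488) and 0.31 (adjusted p = 0.0131), with VPA differences between -0.06 and 0.15 that did not pass. Atg16l1 fell by 0.31 (SE 0.08, adjusted p = 0.00287). With housekeeping centring the sign of the control culture change turned for Atg3, Atg5, Atg7 and Atg12, and also for Atg13 and Map1lc3b, so the direction of these 6 rests on the scaling; for Atg3 and Atg5 the sign turned under VPA as well.

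On the deposited scale the conjugation enzymes Atg3, Atg5 and Atg7 rose between 4 and 64 h with and without VPA. With housekeeping centring none of them was called higher over the control culture. Their promoters are shown as they hold the letters CACGTG, the core of the E-box that TFEB and other basic helix-loop-helix factors bind. Each is a stretch of 200 bases of the RefSeq promoter table (GRCm38.p6, a C57BL/6J reference, whereas the cells were Balb/cByJ), all on the + strand, at chr16:45158629-45158828, chr10:44268139-44268338 and chr6:114670896-114671095, with CACGTG in capitals.
Atg3: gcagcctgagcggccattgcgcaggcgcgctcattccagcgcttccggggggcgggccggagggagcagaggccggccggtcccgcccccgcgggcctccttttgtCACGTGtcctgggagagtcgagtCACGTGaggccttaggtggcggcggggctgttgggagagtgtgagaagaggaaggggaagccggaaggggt
Atg5: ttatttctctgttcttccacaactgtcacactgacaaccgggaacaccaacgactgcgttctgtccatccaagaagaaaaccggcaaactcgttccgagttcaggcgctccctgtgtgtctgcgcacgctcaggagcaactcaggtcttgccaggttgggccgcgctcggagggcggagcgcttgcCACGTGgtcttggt
Atg7: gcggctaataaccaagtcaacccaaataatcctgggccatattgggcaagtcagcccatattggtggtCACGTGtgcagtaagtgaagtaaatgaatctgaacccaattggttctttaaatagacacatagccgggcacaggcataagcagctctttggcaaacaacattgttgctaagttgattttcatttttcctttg
The Atg3 stretch ends at the base before the annotated gene, the Atg5 stretch ends just inside it, and the Atg7 stretch lies 28 kb inside the gene, at an internal start. Of the 36 genes, 30 had an entry in that table, with 38 windows of 300 bases from 250 before to 50 after a start. CACGTG, which reads the same on both strands, was in a window of 4 of the 30 genes (13.3%), the fourth being Atg14, and of 8.09% of the 27025 genes in the table. The longer GTCACGTG, which contains CACGTG and was searched on both strands, was in 3 of 30 (Atg3, Atg7 and Atg14) and in 2.55% of all genes. The full CLEAR element, which is GTCACGTG followed by AC, was in none of the 30 and in 0.37% of all genes. These are matches of letters in a window and say nothing of binding. On the deposited scale the Atg14 probe set fell over the control culture while the other 3 rose. Atg10, which also rose with and without VPA, held no CACGTG in its window.

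The ATG8 family divided by member. Map1lc3a, Map1lc3b, Gabarap and Gabarapl2 rose over the control culture and Gabarapl1 fell. Map1lc3a, which encodes LC3A, read 7.42, 7.72 and 7.53 in Ctrl4h, 7.56 and 7.73 in Ctrl16h, 8.59, 8.41 and 8.40 in Ctrl64h, 7.61, 7.94 and 7.76 in VPA4h and 8.44, 8.41 and 8.51 in VPA64h. It rose by 0.91 over the control culture (SE 0.10, adjusted p = 1.65e-06) and the VPA differences of 0.21 and -0.02 did not pass. Map1lc3b, which encodes the LC3B most used as an autophagosome marker, dipped at 16 h. It read 9.23, 9.39 and 9.22 in Ctrl4h, 8.83 and 8.69 in Ctrl16h and 9.57, 9.68 and 9.56 in Ctrl64h, a fall of 0.52 (SE 0.11, adjusted p = 0.00242) and then a rise of 0.84 (SE 0.11, adjusted p = 1.42e-05). With VPA it read 9.68, 9.98 and 9.62 at 4 h and 9.93, 9.99 and 9.93 at 64 h, higher than control by 0.48 (adjusted p = 0.00142) and 0.35 (adjusted p = 0.0141). A second Map1lc3b probe set gave 0.24 at 64 h (adjusted p = 0.0969), which did not pass.

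Gabarap rose in both intervals of control culture. It read 9.91, 10.04 and 9.89 in Ctrl4h, 10.51 and 10.47 in Ctrl16h and 11.13, 11.06 and 11.15 in Ctrl64h, with no overlap, a 2.25-fold rise in all (1.17, SE 0.09, adjusted p = 2.07e-08). It read 10.19, 10.51 and 10.45 in VPA4h, above Ctrl4h by 0.43 (adjusted p = 0.00168), and 10.97, 10.98 and 11.04 in VPA64h, a difference of -0.12 from Ctrl64h (adjusted p = 0.381). With housekeeping centring the change of Gabarap was 0.15 to 16 h (adjusted p = 0.201) and -0.35 with VPA at 64 h (adjusted p = 0.00846). Gabarapl1 ran the opposite way to Gabarap in control culture. It read 10.31, 10.32 and 10.08 in Ctrl4h, 9.66 and 9.59 in Ctrl16h and 9.51, 9.41 and 9.45 in Ctrl64h, a fall of 0.78 (SE 0.09, adjusted p = 3.4e-06) of which 0.61 came by 16 h. VPA lowered it at 4 h by 0.45 (SE 0.09, adjusted p = 0.00213), to 9.79, 9.82 and 9.75. At 64 h it read 9.78, 9.79 and 9.50 with VPA, and the difference of 0.23 from control did not pass (adjusted p = 0.0879).

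Gabarapl2 read 9.38, 9.47 and 9.17 in Ctrl4h, 9.02 and 9.04 in Ctrl16h and 9.82, 9.85 and 9.93 in Ctrl64h. With VPA it read 9.75, 9.92 and 9.65 at 4 h and 10.62, 10.56 and 10.35 at 64 h, where all 3 arrays lay above every other array. VPA raised it by 0.44 at 4 h (adjusted p = 0.00392) and by 0.64 at 64 h (SE 0.10, adjusted p = 0.000208), its largest change in size being the rise of 0.84 after 16 h in control culture (SE 0.11, adjusted p = 2.02e-05). A second, much dimmer Gabarapl2 probe set (mean level 5.21) passed in no comparison. RefSeq lists 5 pseudogenes named for Gabarapl2, 8 for the LC3 genes and 1 for Atg4a, so probes of these genes may also read copies and their values are uncertain to that degree.

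**Figure D4:**
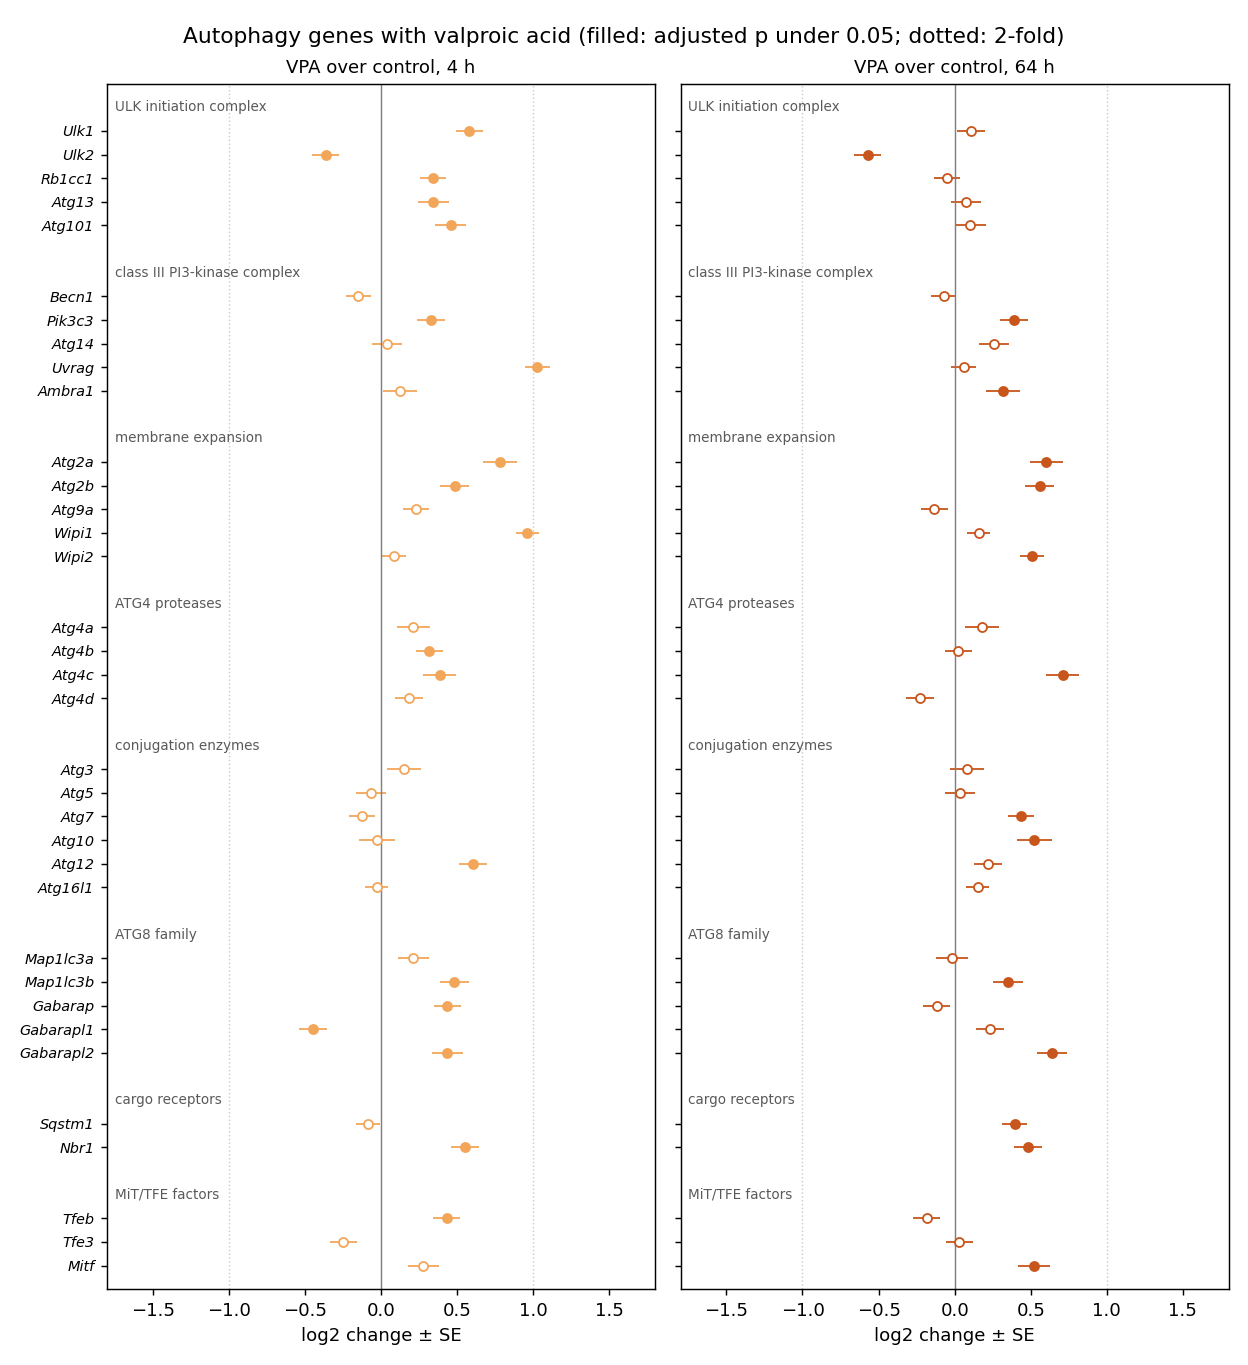
Log2 change with its SE of each of the 35 measured genes with VPA, at 4 h (left, VPA4h against Ctrl4h) and at 64 h (right, VPA64h against Ctrl64h), ordered by role. Filled points passed an adjusted p of 0.05 and dotted lines mark a 2-fold change; 17 genes were higher and 2 lower at 4 h, 13 higher and 1 lower at 64 h (6 and 7 with housekeeping centring), and only Uvrag at 4 h (1.03) crossed a dotted line.

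Sqstm1 had the largest change of the list. It encodes p62, a cargo receptor that is itself degraded by autophagy. It read 13.03, 12.93 and 12.98 in Ctrl4h, 12.67 and 12.64 in Ctrl16h and 11.55, 11.47 and 11.46 in Ctrl64h, with no overlap between the times. It fell 2.81-fold (-1.49, SE 0.08, adjusted p = 4.78e-10), mostly after 16 h (-1.16, SE 0.09, adjusted p = 8.31e-08). In VPA4h it read 12.97, 12.90 and 12.82, a difference of -0.09 from Ctrl4h (adjusted p = 0.572). In VPA64h it read 12.02, 11.79 and 11.86, above Ctrl64h by 0.39 (SE 0.08, adjusted p = 0.00192), and its fall under VPA was 2.01-fold (-1.01, SE 0.08, adjusted p = 5.22e-08). Nbr1, a related receptor, read 9.30, 9.10 and 9.04 in Ctrl4h, 8.91 and 8.97 in Ctrl16h and 9.22, 9.26 and 9.16 in Ctrl64h. Its change over the control culture was 0.07 (adjusted p = 0.556). With VPA it read 9.79, 9.59 and 9.71 at 4 h and 9.83, 9.57 and 9.67 at 64 h, higher by 0.55 (adjusted p = 0.000337) and 0.48 (adjusted p = 0.00126).

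The 3 MiT/TFE genes encode factors that switch on lysosomal and autophagy genes, and are controlled largely at the protein level. Tfeb lay between 6.76 and 7.12 on the 8 control arrays, and read 7.26, 7.35 and 7.33 in VPA4h and 6.94, 6.87 and 6.73 in VPA64h. The VPA4h arrays were the highest, by 0.43 over Ctrl4h (SE 0.09, adjusted p = 0.00172), whereas at 64 h the difference was -0.18 (adjusted p = 0.154). Tfe3 fell in both intervals of control culture, by 0.63 in all (SE 0.09, adjusted p = 2.16e-05), and its VPA differences of -0.25 and 0.03 did not pass. Mitf read 6.24, 6.28 and 6.42 in Ctrl64h and 6.79, 6.67 and 7.03 in VPA64h, a rise of 0.52 (SE 0.10, adjusted p = 0.00159). A second, dim Mitf probe set (mean level 2.97) passed in no comparison.

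In control culture 11 of 35 genes were not called by 16 h and rose after it (Atg13, Atg101, Uvrag, Wipi1, Atg4a, Atg4b, Atg10, Atg12, Map1lc3a, Gabarapl2 and Nbr1). Ulk2 and Gabarap rose in both intervals, and Atg4c and Atg7 only in the first. Rb1cc1, Becn1 and Map1lc3b fell and then rose. Atg2a, Sqstm1 and Tfe3 fell in both intervals. Wipi2, Atg16l1 and Gabarapl1 fell only in the first, and Ambra1 and Atg2b only in the second. The other 9 were called in neither. Shares of all probe sets with these patterns were not counted, so the grouping only describes the genes. With housekeeping centring all of the 11 but Atg4a and Atg10 were called lower by 16 h. On that scale Atg101 and Nbr1 lost their later rise, and Ulk2 and Gabarap lost their rise by 16 h. Both intervals share the 2 Ctrl16h arrays, so a deviation of these arrays gives opposite changes in them. Without Ctrl16h replicate 1 the genes called by 16 h went from 13 to 6, and without replicate 2 to 8. Of the genes that passed in both, 16 changed the same way from 4 to 64 h in control and in VPA culture and 0 changed in opposite ways. These are 45.7% of the 35, beside 37.4% of all probe sets and 49.1% of the brighter ones, and opposite ways were also rare there (1.56% and 2.71%). With housekeeping centring Uvrag and Wipi1 were called in opposite ways. Over that time under VPA 10 of 35 rose and 9 fell, against 23.2% and 27.1% of all probe sets (36.5% and 28.1% of the brighter ones), and 5 changed at least 2-fold (7.55% of all): Atg4a, Atg4c, Atg7 and Atg10 upward and Sqstm1 downward.

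With VPA 7 of 35 genes were higher at both times (Pik3c3, Atg2a, Atg2b, Atg4c, Map1lc3b, Gabarapl2 and Nbr1). A further 10 were higher at 4 h and not called at 64 h, and 6 were higher at 64 h and not called at 4 h. Over all probe sets the same patterns were met by 4.51%, 5.94% and 7.81%, and of the 11705 brighter ones by 969, 1285 and 1060. With housekeeping centring the counts were 4 (Atg2a, Atg2b, Gabarapl2 and Nbr1), 6 and 2. The difference between the VPA effects was tested itself: 12 of 35 genes (34.3%) passed, 7 with a lower effect at 64 h than at 4 h and 5 with a higher one, against 8.33% and 7.54% of all probe sets and 13.8% and 11.4% of the brighter ones. None of these differences reached 2-fold (2.59% of all probe sets did). Lower at 64 h were Uvrag, Wipi1, Tfeb, Gabarap, Ulk1, Atg4d and Rb1cc1, and higher at 64 h were Gabarapl1, Atg7, Atg10, Sqstm1 and Wipi2. For the remaining genes called at one time only, a difference between the times was not shown.

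Genes around the core machinery were taken from 3 further lists. Their counts stand beside the same background as above: 25.0% of all probe sets rose and 31.6% fell over the control culture, 11.5% were higher and 9.96% lower with VPA at 4 h, and 12.8% and 11.2% at 64 h. Of the brighter probe sets the shares were 39.5% and 28.5%, 21.2% and 17.8%, and 18.2% and 16.7% in turn. A change of at least 2-fold in either direction was met by 10.4%, 1.42% and 2.14% of all probe sets in turn. The values of these lists are on the deposited scale. Housekeeping centring shifts all changes of a comparison alike, and over the control culture it took Atg4a from 1.41 to 0.95. Rises of these lists below 1.41 over that time are thus less than 2-fold with housekeeping centring. Of 24 genes of upstream control, 8 rose and 7 fell over the control culture, 9 were higher and 5 lower with VPA at 4 h, and 10 were higher and 1 lower with VPA at 64 h. Sesn2 and Ddit4, stress-induced inhibitors of the kinase complex mTORC1, both fell over the control culture, with a change of -1.83 for Sesn2 (SE 0.09, adjusted p = 1.48e-10), while that of Ddit4 was -1.61 (SE 0.14, adjusted p = 7.43e-08). Prkaa2, a catalytic subunit of the energy sensor AMPK, rose by 1.60 (SE 0.12, adjusted p = 2.65e-08). Rragd, a GTPase that links nutrients to mTORC1 on lysosomes, rose by 1.15 in control culture (SE 0.11, adjusted p = 2.18e-07) and by 1.18 with VPA at 4 h (SE 0.11, adjusted p = 1.11e-06), with means of 7.02 in Ctrl4h, 8.17 in Ctrl64h and 8.21 in VPA4h. Foxo1, a factor that activates autophagy genes, was higher in VPA4h than in Ctrl4h by 1.16 (SE 0.10, adjusted p = 5.52e-07), and Akt1s1, which encodes the mTORC1 subunit PRAS40, was lower by 1.11 (SE 0.10, adjusted p = 1.08e-06). Sesn3, another sestrin, was higher with VPA at 4 h by 1.12 (SE 0.11, adjusted p = 2.49e-06) and at 64 h by 1.35 (SE 0.11, adjusted p = 4.95e-07).

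Of 12 measured selective receptors, 8 rose and 2 fell over the control culture, with 4 higher and 2 lower with VPA at 4 h and 2 higher and 1 lower at 64 h. The 3 of these that changed at least 2-fold over that time were Bnip3, Fundc1 and Bnip3l, each of which encodes a receptor on mitochondria. The change was 1.90 for Bnip3 (SE 0.11, adjusted p = 1.18e-09), 1.48 for Fundc1 (SE 0.10, adjusted p = 5.94e-09), and for Bnip3l it was 1.11 (SE 0.11, adjusted p = 2.55e-07). Bnip3 had means of 6.23, 6.52 and 8.13 at the 3 control times, so most of its rise came after 16 h. Retreg1, a receptor for the endoplasmic reticulum, was higher with VPA at 64 h by 1.225 (SE 0.11, adjusted p = 1.04e-06). In that comparison housekeeping centring took Ulk1 from 0.1056 to -0.1259, and the same shift takes Retreg1 just below 2-fold. Of 21 measured genes of trafficking and fusion, 11 rose and 4 fell over the control culture, with 5 higher and 1 lower with VPA at 4 h and 6 higher and 1 lower at 64 h. Vps41, a subunit of the HOPS complex that tethers vesicles to lysosomes, rose by 2.32 (SE 0.09, adjusted p = 2.46e-11), from a mean of 7.52 in Ctrl4h to 9.84 in Ctrl64h. The others of that list at 2-fold were Stx17 and Vamp8, which encode membrane fusion proteins. The change was 1.39 for Stx17 (SE 0.09, adjusted p = 5.05e-09), and for Vamp8 it was 1.09 (SE 0.11, adjusted p = 2.8e-07).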

How the data were processed

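The authors deposited 1 table of log2 expression values of 14 Affymetrix Mouse Gene 1.0 ST arrays, made by RMA (background correction, quantile normalisation and probe summary). The methods name GeneSpring GX for this step and the submitters' processing notes name Affymetrix Expression Console. The log2 values were used as deposited. Of 35557 probe sets, 23410 with at least 1 gene symbol in the platform table entered the tests, and only the 21789 with exactly 1 symbol gave gene names.

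All arrays entered 1 limma fit (limma 3.58.1, R 4.3.3) of 5 group means with moderated, two-sided tests (9 residual and 6.52 prior degrees of freedom) of 7 contrasts, with Benjamini-Hochberg adjustment over all tested probe sets. The fit was tested on simulated data. The number of arrays limits the precision. The labels do not state from which isolation an array came. Same-numbered arrays of the 2 treatments deviated together at 4 h (r from 0.139 to 0.279 over 3 pairs) and at 64 h (r from 0.158 to 0.171), so the replicate number was also fitted as a block. Array values are printed for each gene changed at least 2-fold in any contrast and the next 4 largest called changes of each contrast; others were added by role after their values were seen. The member genes and all lists were chosen with earlier results of these data known. Alternatives covered scaling, filters, probe set choice, variance model and leaving out each array.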

Additional observations from a re-analysis of the deposited data

Results flagged for a closer look

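The effect of VPA (VPA over control of the same time) differed between 4 and 64 h for 12 of 35 autophagy genes by the limma test of that difference (adjusted p below 0.05 over all probe sets). The difference, the effect at 64 h minus that at 4 h on the log2 scale, was negative for 7 genes. It was -0.97 for Uvrag (effects 1.03 and 0.06, adjusted p = 3.92e-05), -0.80 for Wipi1 (0.96 and 0.16, adjusted p = 0.000112) and -0.62 for Tfeb (0.43 and -0.18, adjusted p = 0.00288). It was -0.55 for Gabarap (0.43 and -0.12, adjusted p = 0.00616), -0.48 for Ulk1 (0.58 and 0.11, adjusted p = 0.0189), -0.41 for Atg4d (0.18 and -0.23, adjusted p = 0.0401) and -0.39 for Rb1cc1 (0.34 and -0.05, adjusted p = 0.0374). For Ulk1 the test did not pass without Ctrl4h replicate 2 (-0.41, adjusted p = 0.0539). The difference was positive for 5 genes. It was 0.68 for Gabarapl1 (-0.45 and 0.23, adjusted p = 0.00219), 0.56 for Atg7 (-0.13 and 0.43, adjusted p = 0.00419) and 0.55 for Atg10 (-0.02 and 0.52, adjusted p = 0.0341). It was 0.48 for Sqstm1 (-0.09 and 0.39, adjusted p = 0.00844) and 0.42 for Wipi2 (0.09 and 0.51, adjusted p = 0.0162). With housekeeping centring the tests of Atg10 (adjusted p = 0.168), Sqstm1 (adjusted p = 0.0702) and Wipi2 (adjusted p = 0.0991) did not pass.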

How the results depend on the processing

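Of 40 changes named by rule, 35 passed the test in every one of the alternatives run on them (26 alternatives in all) and 0 reversed. These 40 were picked for their size in the same data and do not stand for all calls. Of all 124 calls of the 35 genes in the 7 contrasts, 8 changed sign with housekeeping centring. The calls lost on that scale were 2 by 16 h, 2 after 16 h and 10 over the control culture. With VPA they were 5 at 4 h, 7 at 64 h, 6 from VPA4h to VPA64h and 3 in the difference of effects. Among the 40, Ulk2, Gabarapl2 and Map1lc3a from VPA4h to VPA64h changed by 0.08, 0.14 and 0.08 with housekeeping centring and no longer passed. The other 2 losses were Ulk2 by 16 h (0.01 with housekeeping centring, 0.33 without Ctrl16h replicate 1) and the Ulk1 difference of effects (-0.41 without Ctrl4h replicate 2). Housekeeping centring gave 27 genes called by 16 h (1 at 2-fold, Wipi2), 29 from VPA4h to VPA64h, 0 at 2-fold with VPA at 4 h and 1 at 2-fold in the difference of VPA effects (Uvrag; median centring also 1). Its splits were 7 and 18 for the control culture, 6 and 7 for VPA at 64 h and 2 and 11 for the difference of effects, and it gave 0 up and 5 down at 2-fold under VPA. Repeated quantile normalisation gave 13 up and 8 down after 16 h and 0 at 2-fold with VPA at 4 h; under it and under median centring the 2-fold split under VPA was 3 and 2, and median centring gave 4 and 9 in the difference of effects. With only the groups of the contrast fitted, 8 genes were called by 16 h (4 up, 4 down). The housekeeping genes were not steady: Polr2a changed by -1.01 and Sdha by 1.05 over the control culture.

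Leaving out each array in turn gave 6 to 14 genes called by 16 h (3 to 5 up, 3 to 9 down, 0 to 1 at 2-fold) and 1 to 2 at 2-fold with VPA at 4 h (2 without VPA4h replicate 3, Wipi1 being the second). The other totals stayed within 1.5 times: 16 to 21 after 16 h (3 to 5 down), 23 to 26 over the control culture, 16 to 20 with VPA at 4 h, 13 to 15 at 64 h, 18 to 20 under VPA and 9 to 11 in the difference of effects.

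With the replicate number as a block, 20 genes were called with VPA at 4 h, Mitf being added (adjusted p = 0.0204, or 0.0412 with only those 2 groups fitted, a fit added after seeing the data), 14 at 64 h and 14 in the difference of effects, where Atg9a and Atg12 were added; no call in these 3 was lost. Over all groups 13 of 26 same-numbered pairs correlated above 0.1, against 6 of 52 pairs with different numbers (median r 0.09 and -0.05). Same-numbered arrays of Ctrl4h and Ctrl64h had r from 0.02 to 0.11, and those of VPA4h and VPA64h from -0.01 to 0.23. Whether the numbers pair samples across times was not settled, and the main fit did not pair them. Across times the block gave 13, 21, 27 and 19 calls (Ctrl16h vs Ctrl4h, Ctrl64h vs Ctrl16h, Ctrl64h vs Ctrl4h, VPA64h vs VPA4h). By 16 h it lost Rb1cc1 (adjusted p = 0.0551) and added Gabarapl2 (adjusted p = 0.0244), and over the control culture it added Atg9a. Genes near the array's dim end, such as Atg10, are measured less surely.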
